A study of Mus musculus with 4 samples.

Results

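Endothelial cells (ECs) capture leukocytes with selectins, which let the cells roll, and with members of the immunoglobulin family, which hold them firmly. Icam1, Icam2 and Vcam1 encode immunoglobulin-family proteins of the EC surface: ICAM-1 and ICAM-2 are bound by beta-2 integrins and VCAM-1 by the integrin alpha-4 beta-1. Sele and Selp encode E-selectin and P-selectin, and Selplg encodes PSGL-1, the selectin ligand that leukocytes carry. Icam1, Vcam1 and Sele are classical targets of NF-kB in ECs exposed to inflammatory cytokines, whereas Icam2 is expressed by resting endothelium and is a known target of the ETS factor ERG. These 6 genes, chosen as the listed selectins and immunoglobulin-family adhesion genes, are described here out of 20063 gene symbols in the count matrix, and all 6 were in it.

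The study profiled whole lungs of C57/BL6 mice by droplet single-cell RNA-seq, with 1 mouse in each of 4 libraries. The 2 ERG CKO libraries came from CDH5-CreER(T):ERG fl/fl mice, in which the endothelial promoter of Cdh5 drives an inducible Cre that deletes Erg in ECs, and the 2 WT libraries came from ERG fl/fl mice that lack the Cre. Mice of both groups received 0.5 mg of tamoxifen on each of 5 days, and the lungs were taken 90 days after that. The labels give no age, and with 2 mice a group every p-value rests on the spread between 2 mice. ERG CKO and WT name these genotypes throughout, and values for single libraries are given in the order WT 1, WT 2, ERG CKO 1, ERG CKO 2.

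The 6 genes lie on 5 chromosomes of GRCm38: Icam1 at chr9:21015985-21028817 on the plus strand, Icam2 at chr11:106377656-106388075 on the minus strand, Vcam1 at chr3:116109949-116129688 on the minus strand and Selplg at chr5:113818536-113832644 on the minus strand. The 2 selectin genes are neighbours on the plus strand, Sele at chr1:164048234-164057677 and Selp at chr1:164115264-164150026. A RefSeq promoter entry was matched for 3 of the 6 genes. The 250 bases before the RefSeq start of Icam1 (GRCm38.p6, chr9:21015690-21015939, plus strand) are shown because they hold the letters of both factor families named above. Capitals mark CCGGAA, a core bound by ETS factors, searched on both strands, and GGAANTTCC, a form of the NF-kB site.
Icam1 promoter: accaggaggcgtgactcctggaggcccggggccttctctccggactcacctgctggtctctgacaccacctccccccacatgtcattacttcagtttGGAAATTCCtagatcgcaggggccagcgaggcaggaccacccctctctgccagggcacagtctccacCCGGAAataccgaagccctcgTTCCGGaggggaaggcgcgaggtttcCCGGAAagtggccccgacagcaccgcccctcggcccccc
CCGGAA occurred 3 times, with first bases at -86, -65 and -39, and GGAANTTCC once, at -153, with no overlap between them. These positions count from the RefSeq start at base 21015940, which lies 45 bases before the start of the Icam1 gene given above. Of 32536 distinct windows of the same length, 12.1% held CCGGAA and 0.811% held GGAANTTCC on either strand. The windows of Sele and Selp held neither motif. A match is a run of letters and was not tested as a site.

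The matrix held 9363 cells, with 2264, 2150, 3097 and 1852 in the 4 libraries, and median counts of 4611 to 4899 UMIs per cell. Summed Erg in ECs was 85.9 and 90.8 CPM (UMIs scaled to the same class total in each library) in WT and 106 and 82.6 in ERG CKO. ERG CKO 1 thus lay above both WT libraries and ERG CKO 2 below both. The matrix has 1 count per gene, so loss of a part of the gene cannot be seen in it and Erg does not check the labels. Clusters were named from fixed markers that include none of the 6 genes, and the ECs were clustered again into subtypes. The general capillary (gCap) ECs, the larger of the capillary types, numbered 346, 348, 267 and 187 cells, and the aerocyte (aCap) ECs, the wide thin cells of the gas exchange surface, numbered 46, 71, 130 and 106. Venous ECs numbered 31, 47, 69 and 21 cells and arterial ECs 17, 18, 18 and 11. UMIs were summed per library and class, and ERG CKO was compared with WT by edgeR's quasi-likelihood test with adjustment over all genes tested in the class. Differences are log2 fold changes, negative where ERG CKO was lower.

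In the ECs as a whole, 0 of the 5 members tested passed the adjusted threshold of 0.05, against 3.33% of the 10753 genes tested in ECs. Without adjustment 2 of the 5 members, Icam1 and Selp, and 1778 of all genes had p under 0.05, and DESeq2 also passed 0 of the 5. Icam1 was 258 and 368 CPM in WT and 232 and 208 CPM in ERG CKO, a log2 difference of -0.55 (SE 0.18, edgeR adjusted p = 0.181). Selp, stored in EC granules for rapid release, was 30.05 and 29.4 CPM in WT and 23.5 and 10.1 CPM in ERG CKO, a log2 difference of -0.79 (SE 0.34, edgeR adjusted p = 0.300). The ranges of Icam1 and Selp did not overlap between genotypes, a pattern found in 46.4% of all genes tested. Both passed the test without ERG CKO 1, and with no filter on low counts.

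The other members overlapped between genotypes in the ECs as a whole. Icam2 was 1135, 1305, 992 and 1185 CPM, a log2 difference of -0.21 (SE 0.14, edgeR adjusted p = 0.550). Vcam1 was 69.3 and 181 CPM in WT and 148 and 101 CPM in ERG CKO, a log2 difference of -0.04 (SE 0.39, edgeR adjusted p = 0.980). The 2 WT libraries lay at both ends of the Vcam1 range, and the direction turned without WT 2, where the difference was 0.81. Selplg was low in ECs, at 11.7, 12.2, 12.1 and 14.9 CPM (log2 difference 0.12, SE 0.25, edgeR adjusted p = 0.881). Sele had 0, 7, 10 and 0 UMIs, carried by 3 cells each in WT 2 and ERG CKO 1, and was too low to test. The median difference of the 5 tested members was -0.21, beside a median near 0 for all genes.

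**Figure D1:**
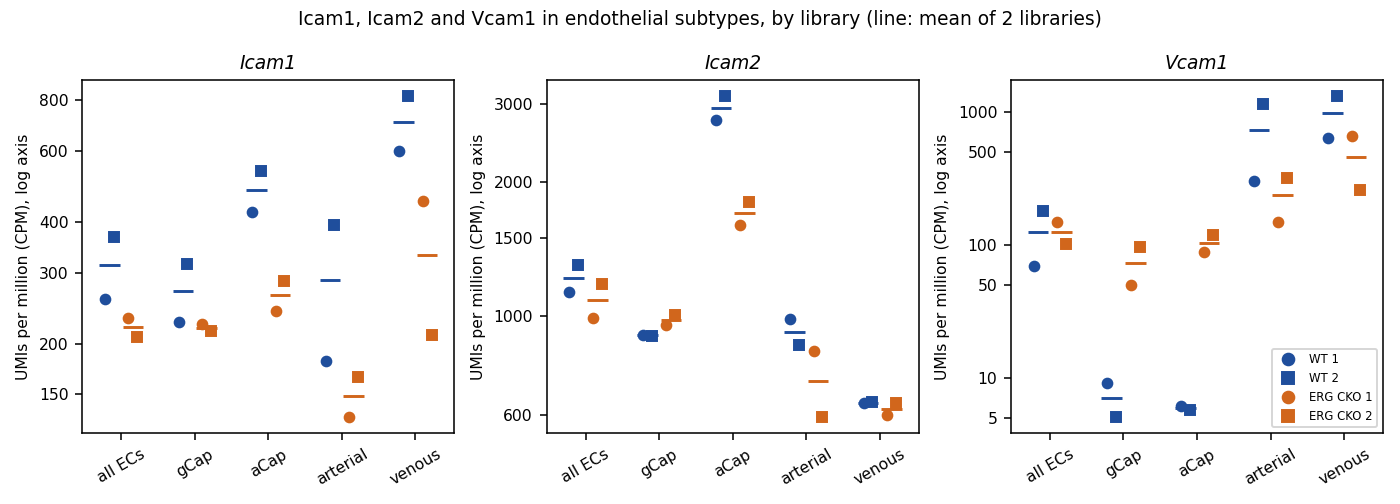
Summed UMIs (CPM, log axes) of Icam1, Icam2 and Vcam1 in all ECs and in each EC subtype, with 1 point per library, WT in blue, ERG CKO in orange, and a line at each mean of 2 libraries. Vcam1 sits at 5.06 to 9.09 CPM in the WT capillary classes and at 49.8 to 119 CPM in the ERG CKO ones, while its venous levels overlap between genotypes.

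The subtypes showed what the sum over ECs did not: in both capillary classes Vcam1 rose, and in aCap ECs Icam1 and Icam2 fell. In aCap ECs Vcam1 was 6.11 and 5.77 CPM in the WT libraries (2 and 3 UMIs) and 88.8 and 119 CPM in the ERG CKO libraries (68 and 72 UMIs). The means were 5.94 ± 0.240 CPM and 104 ± 21.4 CPM (SD, n = 2 mice each), a log2 difference of 4.04 (SE 0.44, edgeR adjusted p = 1.1e-06). Every ERG CKO library lay above every WT library, and the means differed by more than the spread within either genotype. Leaving out the highest cell of each library, which left 1 and 0 UMIs in WT, took the difference to 5.87.

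Icam1 in aCap ECs was 425 and 535 CPM in WT and 241 and 286 CPM in ERG CKO, a log2 difference of -0.91 (SE 0.19, edgeR adjusted p = 0.00186). Icam2 was 2767 and 3121 CPM in WT and 1605 and 1807 CPM in ERG CKO, with means of 2944 ± 250.1 CPM and 1706 ± 142 CPM (SD, n = 2 mice each). Its log2 difference was -0.82 (SE 0.16, edgeR adjusted p = 0.00124). Thus 3 of the 3 members tested in aCap ECs passed, 1 higher and 2 lower, where 11.6% of the 7086 genes tested in the class passed, 5.33% higher and 6.24% lower, and 49.6% had ranges that did not overlap. Thinned to 1000 UMIs per cell, Icam1 no longer passed (edgeR adjusted p = 0.180) and Vcam1 was too sparse to test.

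The aCap class itself differed between genotypes, and without alignment of the libraries only 4 and 1 ERG CKO cells fell in it, so that none of its 3 differences could be tested. Its 8 fixed markers summed to 10738 and 10408 CPM in WT and 3647 and 5156 CPM in ERG CKO, and the 8 pan-endothelial markers to 21202, 21107, 11772 and 12336 CPM. Platelet markers summed to 73.3, 160, 371 and 179 CPM, and venous markers to 85.5, 71.1, 225 and 182 CPM. The part of these in the member differences was not tested, but without cells that held Pf4 or Ppbp, platelet genes, all 3 differences still passed.

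In gCap ECs Vcam1 was 9.09 and 5.06 CPM in WT (13 and 7 UMIs) and 49.8 and 96.4 CPM in ERG CKO (82 and 90 UMIs). The means were 7.08 ± 2.85 CPM and 73.1 ± 33.0 CPM (SD, n = 2 mice each), a log2 difference of 3.25 (SE 0.39, edgeR adjusted p = 0.00161). The genotypes did not overlap, as for 42.1% of genes tested in the class, and ERG CKO 2 was the higher of the ERG CKO libraries. Vcam1 was the 1 member that passed of 4 tested, where 2.6% of 9302 genes passed and 1.92% passed higher. The call was lost when cells were thinned to 1000 UMIs, at a log2 difference of 2.65 (edgeR adjusted p = 0.0686). It was also lost when gCap ECs were taken from the clusters of all lung cells, at 1.91 (edgeR adjusted p = 0.133). There the largest gCap cluster held Vcam1 at 9.1 and 6.6 CPM in WT and 45.9 and 32.4 CPM in ERG CKO, and the other at 11.9, 3.4, 10.2 and 2.1 CPM. These clusters held 73 and 5 Vcam1 UMIs in ERG CKO 1, and 18 and 1 in ERG CKO 2, against the 82 and 90 above. Another EC cluster of all lung cells, led by F8, Apln and Gja1, had 3, 6, 101 and 64 cells. Its Vcam1 UMIs were 0, 0, 26 and 42. Which of the all-cell clusters gave the Vcam1 UMIs of gCap ECs was not tested.

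No other member passed in gCap ECs. Icam2 was 908 and 905 CPM in WT and 957 and 1009 CPM in ERG CKO (log2 difference 0.08, SE 0.15, edgeR adjusted p = 0.895). Icam1 was 226, 315, 223 and 215 CPM (log2 difference -0.33, SE 0.19, edgeR adjusted p = 0.521), and Selplg was 10.5, 13.8, 12.8 and 6.43 CPM. The gCap markers summed to 6343 and 6671 CPM in WT and 4664 and 4403 CPM in ERG CKO, and the venous markers to 671, 549, 1060 and 776 CPM. Platelet markers summed to 41.3, 47.8, 246 and 97.4 CPM, and 7 interstitial macrophage markers, of which Cd163 and Folr2 were at 0, to 2.10, 0.723, 38.8 and 24.6 CPM. Erythroid markers summed to 41.3, 48.5, 4023 and 6309 CPM, of which 1 cell held 6355 of 6627 UMIs in ERG CKO 1 and another 5856 of 5892 UMIs in ERG CKO 2. Neither of these cells had a Vcam1 UMI. The part of the other lists in the Vcam1 difference was not tested. The Vcam1 difference was 3.14 without cells that held Pf4 or Ppbp and 3.32 without ECs that held the leukocyte gene Ptprc, and passed in both.

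**Figure D2:**
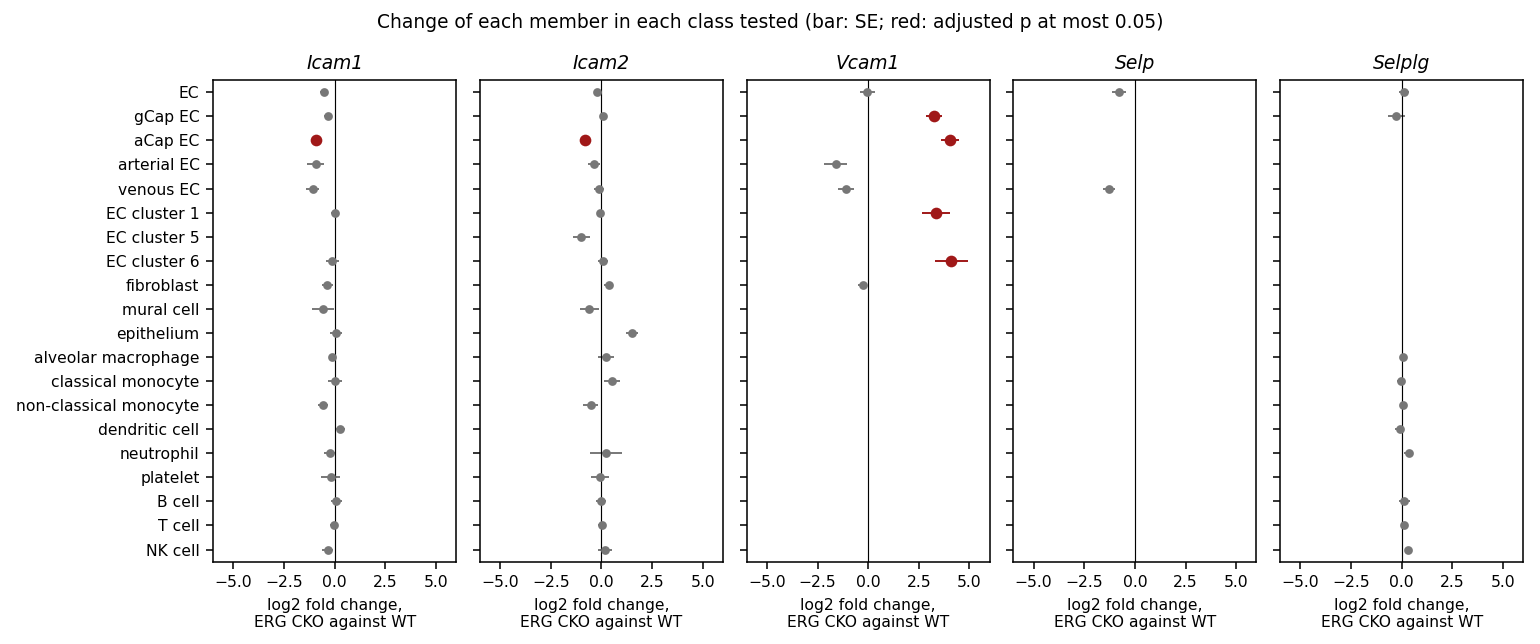
Log2 fold change of each tested member, ERG CKO against WT, in each class where it was tested, with bars of 1 SE and red points where the adjusted p was at most 0.05. Vcam1 lies at 4.04 in aCap and 3.25 in gCap ECs and at -1.10 in venous and -1.60 in arterial ECs, where it did not pass.

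Counted by cell, Vcam1 was found in 2 of 46 and 1 of 71 WT aCap ECs, and in 31 of 130 and 33 of 106 ERG CKO aCap ECs. These are 4.35% and 1.41% of the WT cells and 23.8% and 31.1% of the ERG CKO cells, and after thinning to 1000 UMIs 0% and 1.41% against 4.62% and 8.49%. In gCap ECs Vcam1 was found in 2.02% and 1.44% of WT cells and in 8.24% and 14.4% of ERG CKO cells, and after thinning in 0.880% and 0.875% of the former and 2.63% and 6.04% of the latter. Thinning left out 2 aCap cells of WT 1 and 5, 5, 1 and 5 gCap cells. T cells, which should lack the gene, held a Vcam1 UMI in 3 of 472 cells of WT 1 (0.636%). In the other libraries 0 of 377, 0 of 509 and 0 of 292 T cells did, which allows shares of up to 0.796%, 0.589% and 1.03% by counting error alone. Median depth was 5837 to 6335.5 UMIs in T cells, 3814.5 to 5387 in gCap ECs and 5435.5 to 7455 in aCap ECs. ERG CKO aCap ECs were the shallower, and ERG CKO gCap ECs the deeper of the genotypes. An exact two-sided permutation test of 2 against 2 libraries cannot go below p = 0.333, which each of these comparisons gave.

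**Figure D3:**
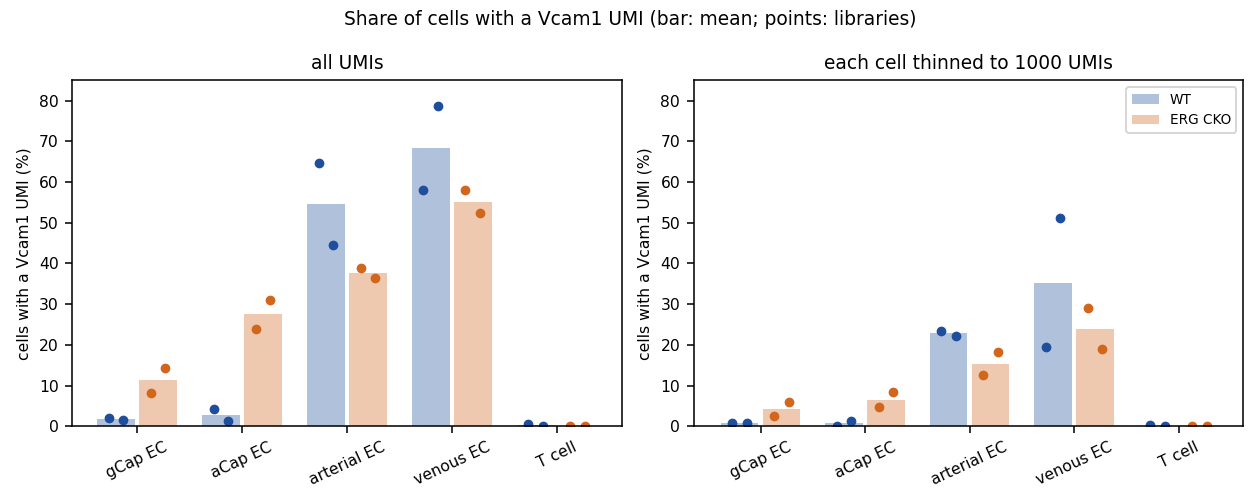
Percent of cells with at least 1 Vcam1 UMI in each library, before and after thinning each cell to 1000 UMIs, for 4 EC subtypes and T cells, with bars at the mean and points for libraries. The ERG CKO libraries lie above the WT libraries in gCap and aCap ECs on both scales, and T cells lie at 0.636% or below.

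The Vcam1-positive capillary cells of the ERG CKO lungs also carried the pan-endothelial member. Icam2 was found in 48 of the 49 such gCap ECs (98.0%) and in 98.4% of the 64 such aCap ECs. The share was much the same in the other ERG CKO cells, at 94.3% of gCap and 97.1% of aCap ECs. Slc6a2, a venous EC marker, was found in 10.2% of Vcam1-positive and 7.2% of other gCap ECs, and in 4.7% and 4.1% of aCap ECs. Pf4 or Ppbp was found in 30.6% against 22.7% of gCap ECs and in 21.9% against 17.4% of aCap ECs. Ptprc was found in 2.0% against 4.7% of gCap ECs and in 4.7% against 2.3% of aCap ECs. Median depth was 5319 against 4927 UMIs in gCap ECs and 5956 against 5241 UMIs in aCap ECs, so Vcam1-positive cells were the deeper in both. A fibroblast transcript (Col1a1, Col3a1 or Pdgfra) was found in 12.2% against 4.7% of gCap ECs and in 4.7% against 2.3% of aCap ECs. C1qa, a macrophage gene, was found in 6.1% against 3.0% of gCap ECs and in 3.1% against 1.2% of aCap ECs, so transcripts of both cell types were more frequent in Vcam1-positive cells. These are descriptions of pooled cells and carry no test.

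Venous ECs, where leukocytes leave the blood in most tissues, held the highest mean levels among EC subtypes of Icam1, Vcam1, Sele and Selp. By edgeR and by DESeq2, 0 of the 4 members tested passed there, where 0.0629% of 4769 genes did. Without adjustment 3 of the 4, and 420 of all genes, had p under 0.05. Selp was 321 and 264 CPM in WT and 152 and 68.0 CPM in ERG CKO (74, 87, 90 and 10 UMIs), a log2 difference of -1.28 (SE 0.31, edgeR adjusted p = 0.159). Icam1 was 599 and 819 CPM in WT and 451 and 211 CPM in ERG CKO, a log2 difference of -1.09 (SE 0.33, edgeR adjusted p = 0.280). Neither overlapped between genotypes, as was so for 39% of genes tested in the class, and ERG CKO 2, with 21 cells, was the lowest for both. Vcam1 was 642, 1319, 661 and 259 CPM and overlapped (log2 difference -1.10, SE 0.40, edgeR adjusted p = 0.423), and Icam2 was level at 638, 643, 602 and 640 CPM. Without 1 library at a time, between 0 and 3 venous members passed. The venous markers themselves summed to 9865, 10189, 8098 and 7028 CPM.

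In arterial ECs 0 of the 3 members tested passed by edgeR or DESeq2, and 0% of the 2009 genes tested did. Without adjustment 2 of the 3 members and 152 of all genes had p under 0.05. Vcam1 was 302 and 1162 CPM in WT and 151 and 323 CPM in ERG CKO, a log2 difference of -1.60 (SE 0.58, edgeR adjusted p = 0.588). A single cell gave 63 of the 124 Vcam1 UMIs of WT 2 (50.8%), and without WT 2 the difference was -0.35. Over 14 alternatives it ranged from -2.28 to -0.35. Icam1 was 181, 394, 132 and 166 CPM (log2 difference -0.94, SE 0.42, edgeR adjusted p = 0.651), and Icam2 985, 862, 837 and 594 CPM. After thinning, the share of arterial ECs with an Icam1 UMI was 5.88% in WT 1, 5.56% in WT 2, 31.3% in ERG CKO 1 and 27.3% in ERG CKO 2, the opposite direction to its CPM. Selp in arterial ECs was 70.4 and 56.2 CPM in WT and 113 and 61.1 CPM in ERG CKO (7, 6, 12 and 7 UMIs), which overlapped and was too low to test.

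Vcam1 also passed in 2 EC clusters that the markers left unnamed. In a cluster led by Cxcl12, Hey1 and Sema3g it was 6.87 and 0 CPM in WT and 28.2 and 37.8 CPM in ERG CKO (log2 difference 3.35, SE 0.71, edgeR adjusted p = 0.0381), where 0.796% of 7165 genes passed. That call was lost without WT 2, ERG CKO 1 or ERG CKO 2, with adjusted p up to 0.890. In a cluster led by Inmt, Apoe, Mfap4, Ogn and C1qb, of which Inmt, Mfap4 and Ogn also led the fibroblasts and C1qb is a macrophage gene, it was 0 and 15.96 CPM in WT and 157 and 76.7 CPM in ERG CKO (log2 difference 4.10, SE 0.80, edgeR adjusted p = 0.0256), where 2.11% of 2889 genes passed. Interstitial macrophage markers summed there to 0, 0, 475 and 196 CPM and fibroblast markers to 299, 207, 314 and 273 CPM, and their part was not tested. The call was lost with DESeq2, at adjusted p = 0.111, and with another size factor, at 0.0595. The Vcam1 UMIs there were 0, 2, 48 and 9, so most came from ERG CKO 1, and without that library Vcam1 was not tested. Both clusters have WT libraries at 0, so these fitted values depend on the prior and are no bounds. Icam1 and Icam2 did not pass in either cluster, with log2 differences of -0.12 to 0.06. In another unnamed cluster, led by Igfbp3 and Col13a1, Icam2 was 815, 851, 258 and 517 CPM (log2 difference -0.996, edgeR adjusted p = 0.173).

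Whether the ERG CKO difference itself varied between subtypes was tested in a joint fit with the library as a block, over 41 pairs of a member and 2 classes, of which 4 passed. For Icam2 the difference in aCap ECs was lower than that in gCap ECs by -0.92 on the log2 scale (SE 0.15, edgeR adjusted p = 0.000148), and this held without any 1 library (-1.02 to -0.79). For Vcam1 the difference in venous ECs lay below that in gCap ECs by -4.24 (SE 0.50, edgeR adjusted p = 7.98e-07), and that in arterial ECs by -4.84 (SE 0.50, edgeR adjusted p = 4.82e-07). The arterial value was -3.35 without WT 2 and -6.06 without WT 1. The Vcam1 differences of aCap and gCap ECs were not shown to differ (0.73, SE 0.71, edgeR adjusted p = 0.686), and nor were those of Icam1 (-0.59, SE 0.20, edgeR adjusted p = 0.0769).

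Outside the endothelium, 32 pairs of a member and a class were tested in 12 classes with at least 10 cells in each library, and 0 passed by edgeR or by DESeq2. Over these 12 classes 0.149% of the tests of all genes passed, and 3 of the 32 pairs had unadjusted p under 0.05. Interstitial macrophages, a tissue macrophage type named here from complement and other markers, numbered 13, 7, 38 and 19 cells and so fell short of that minimum. Their summed Vcam1 was 100 and 293 CPM in WT (11 and 16 UMIs) and 1561 and 929 CPM in ERG CKO (216 and 86 UMIs). It was found in 3 of 13 and 3 of 7 WT cells and in 27 of 38 and 12 of 19 ERG CKO cells. After thinning to 1000 UMIs it was found in 7.69% and 16.7% of WT cells and in 60.9% and 42.9% of ERG CKO cells, with 0, 1, 15 and 5 cells left out. The CPM of the genotypes did not overlap, as for 39% of 1446 genes in the class, and median depth differed widely, at 7200, 9571, 1164.5 and 4513 UMIs. In a test with a minimum of 5 cells, chosen after the values were seen, the log2 difference was 2.82 (SE 0.59, edgeR adjusted p = 0.540), and 0 of 1446 genes passed in the class, with 106 at unadjusted p under 0.05. Without 1 library at a time, which left 1 mouse in a group, the difference was 2.25 to 3.69. The macrophage markers summed to 11786 CPM in WT 1 and 18470 to 23492 CPM in the others. The gCap markers summed to 438, 257, 766 and 691 CPM there and classical monocyte markers to 538, 1228, 181 and 302 CPM, and their part was not tested. Icam1 there was 265, 128, 123 and 86.4 CPM, and Selplg 173, 275, 93.9 and 162 CPM.

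Fibroblasts, the class next below arterial ECs in Vcam1, held it at 319 and 292 CPM in WT and 265 and 235 CPM in ERG CKO (log2 difference -0.28, SE 0.21, edgeR adjusted p = 0.806). The epithelium held Icam1 at 421, 252, 378 and 499 CPM. Icam2 in the epithelium was 39.6 and 33.6 CPM in WT and 114 and 151 CPM in ERG CKO (log2 difference 1.5, SE 0.30, edgeR adjusted p = 0.379). Of the Icam2 UMIs of ERG CKO 2 there, 23 came from a cluster with 2 cells of that library, while in ERG CKO 1, 53 came from a cluster that held 46 of its 62 epithelial cells. The same clusters held 9 and 27 of the 57 epithelial cells of WT 1. The pan-endothelial markers summed there to 1038, 906, 2345 and 1652 CPM, higher in the ERG CKO libraries as Icam2 was, and their part was not tested. The thinned shares of epithelial cells with an Icam2 UMI were 7.14% to 7.55% in the 4 libraries. Icam1 in dendritic cells was 262, 179, 288 and 231 CPM, and the other pairs tested outside ECs had log2 differences from -0.60, Icam2 in mural cells, to 0.51, Icam2 in classical monocytes. Of the 38 Vcam1 UMIs of the neutrophils of ERG CKO 1, 34 were in 1 cell, and the other 3 libraries held Vcam1 at 0, 4.71 and 0 CPM.

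PSGL-1 is the leukocyte side of the selectin pair, and Selplg followed that pattern. It was highest in NK cells, at 941 and 996.5 CPM in WT and 1142 and 1236 CPM in ERG CKO (log2 difference 0.29, SE 0.13, edgeR adjusted p = 0.944). Neutrophils followed at 901, 720.5, 957 and 1056 CPM (log2 difference 0.36, SE 0.22, edgeR adjusted p = 0.976). T cells held 490.5, 589, 542 and 612 CPM and stood below neutrophils and above the next class without overlap. NK cells and neutrophils overlapped. Selp in platelets, which carry P-selectin in granules, was 25.7, 48.35, 26.1 and 43.45 CPM from only 2, 5, 7 and 4 UMIs.

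**Figure D4:**
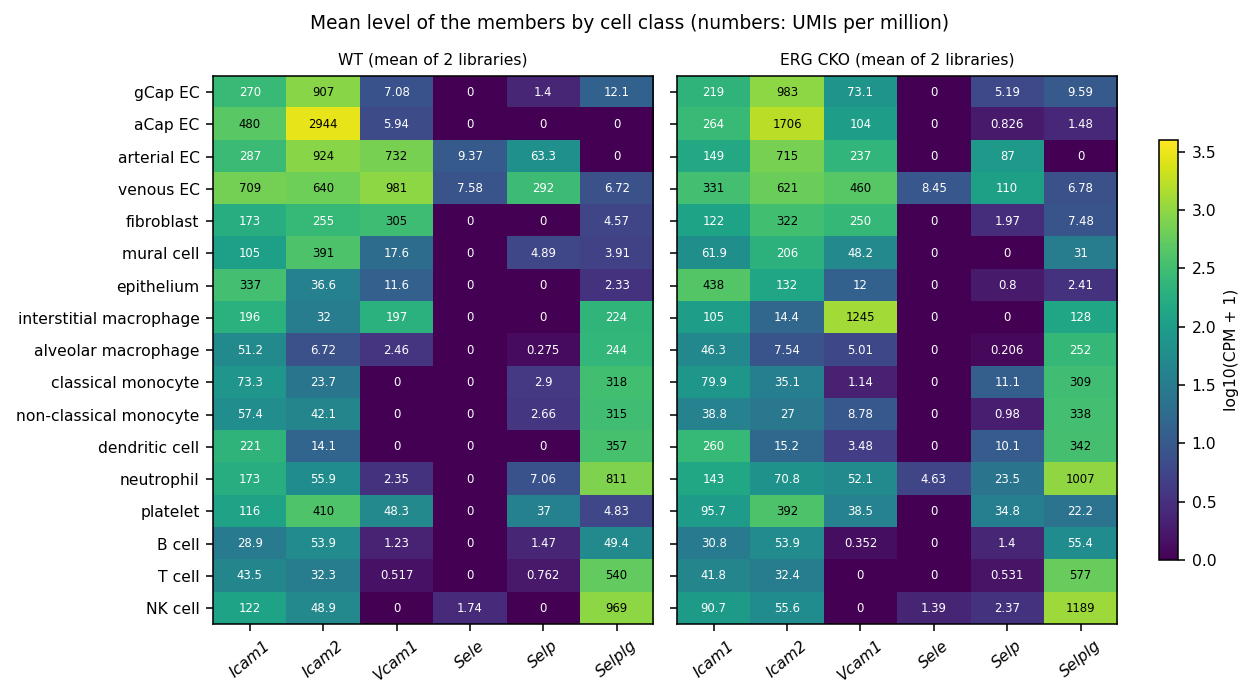
Mean level of each member in 17 cell classes, WT at left and ERG CKO at right, with colour for log10 of CPM + 1 and the CPM (mean of 2 libraries) printed in each cell. Icam2 falls from 2944 to 1706 CPM in aCap ECs, and Vcam1 is 5.94 and 104 CPM there.

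By mean level over the 4 libraries, Icam2 was highest in aCap ECs (2325 CPM), above the Cxcl12 and Hey1 cluster (1233 CPM) without overlap. In that cluster it was 1199.9, 1309.9, 1188 and 1233 CPM, and in the EC cluster led by platelet genes, next in order, 942, 827, 922 and 1389 CPM. Icam1 was highest in venous ECs (520 CPM), the epithelium (388 CPM) and aCap ECs (372 CPM), whose ranges overlapped. This order changed with genotype, with means of 709, 337 and 480 CPM in WT and 331, 438 and 264 CPM in ERG CKO. Vcam1 was highest in interstitial macrophages (721 CPM) and venous ECs (720 CPM), followed by arterial ECs (484 CPM) and fibroblasts (278 CPM), again with overlap. The order of Vcam1 also depended on genotype: in WT the means were 197 CPM in interstitial macrophages, 981 CPM in venous ECs, 732 CPM in arterial ECs and 305 CPM in fibroblasts, and in ERG CKO they were 1245, 459.6, 237 and 249.9 CPM. Selp was highest in venous ECs (201 CPM), overlapping arterial ECs (75.2 CPM), which stood above platelets without overlap. Sele was highest in venous ECs at a mean of 8.0 CPM, with 0, 15.2, 16.9 and 0 CPM in the 4 libraries. Its other counts in the next classes were 2 UMIs in arterial ECs of WT 2 and 1 and 2 UMIs in neutrophils of ERG CKO 1 and 2, all at or under the floor of 3 counts. The level is of summed 3' counts within 1 gene and is not compared between genes.

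Across the means of 17 classes, the 3 genes most like each member were taken by Pearson correlation. Icam2 was most like Ecscr (0.977), an EC surface protein, Gm9917 (0.968) and Myzap (0.968). Vcam1 was most like Stab1 (0.884), a scavenger receptor, Rcan1 (0.854) and Chst7 (0.831), and Icam1 was most like Baiap2 (0.812), Tmem59 (0.803) and Ndufa12 (0.786). Selp was most like Cpe (0.896), Itgb4 (0.889) and Cytl1 (0.879), and Sele like Cpe (0.886), Selp (0.880) and Foxc1 (0.872). Selplg was most like Arhgap9 (0.960), the leukocyte gene Ptprc (0.960) and Zfp36l2 (0.954). The classes share libraries, and these values are a description over 7251 genes.

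Other genes of leukocyte capture were counted from 5 fixed lists in ECs. Of the endothelial partners, 13 of 18 could be tested, 1 passed higher and 1 lower, and their median difference was -0.22. Cd34, a sialomucin that can carry selectin ligands, was 239 and 224 CPM in WT and 445 and 561 CPM in ERG CKO (log2 difference 1.08, SE 0.15, edgeR adjusted p = 0.0149). Cx3cl1, the membrane-bound chemokine fractalkine, was 42.1 and 57.6 CPM in WT and 16.9 and 19.0 CPM in ERG CKO (log2 difference -1.53, SE 0.20, edgeR adjusted p = 0.0127). Of the enzymes that build selectin ligands, 7 of 10 could be tested, with 1 higher and 1 lower. Gcnt1, a glycosyltransferase, was 5.66, 6.26, 18.4 and 37.2 CPM (log2 difference 2.13, SE 0.38, edgeR adjusted p = 0.0301), and Chst2, a sulfotransferase, was 40.6, 46.0, 21.6 and 22.3 CPM (log2 difference -1.02, SE 0.16, edgeR adjusted p = 0.0203). For all 4 genes the genotypes did not overlap, as for 46.4% of all genes tested in ECs.

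In ECs 0 genes of the other 3 lists passed by edgeR. Of the integrins and other counter-receptors 7 of 12 could be tested, of the cytokine receptors and NF-kB genes 12 of 12, and of the cytoskeletal anchors and sheddases 8 of 8. The genes with the largest difference in each were Itga4 (1.497, edgeR adjusted p = 0.140), Il1rap (1.14, edgeR adjusted p = 0.0901) and Ezr (-0.52, edgeR adjusted p = 0.139). In aCap ECs, where 5.33% of all genes passed higher and 6.24% lower, the NF-kB list had 2 genes higher, Nfkb1 (1.13) and Relb (1.26), of 10 tested. Of the anchors, Ezr (-1.15) and Actn1 (-0.99) were lower there and Rdx (0.89) was higher, of 8 tested. Cx3cl1 (-2.74) and Esam (-1.04) were lower in aCap ECs among the partners, of 12 tested, and Itgb1 (0.74) was higher among the counter-receptors, of 3 tested. Of the enzymes, Gcnt1 (3.93) was higher and Chst2 (-1.91), Tpst2 (-1.496) and St3gal6 (-1.10) were lower, of 6 tested. In gCap ECs Cd34 was 100.002 and 88.3 CPM in WT and 314 and 439 CPM in ERG CKO, a log2 difference of 1.96.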

How the data were processed

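The authors deposited 1 matrix of raw UMI counts per gene and cell for 4 whole-lung libraries, made with Cell Ranger 3.1.0 on mm10 per the submitters' processing notes. Lungs were digested with Liberase and DNase, red cells were lysed, and droplet libraries were sequenced on a NextSeq 500. No cell annotation was used, so cell names were rebuilt here and may differ from those of the study. All 9363 cells were kept, with at least 500 UMIs and 300 genes each. Scrublet in scanpy 1.11.5 marked 58 (0.619%) as doublets, which were kept, and 7 barcode sequences occurred in 2 libraries. The highest mitochondrial share was 49.2%. Symbols on 2 rows (13) were summed. Library totals were 14714193, 13301217, 18646776 and 11263911 UMIs for WT 1, WT 2, ERG CKO 1 and ERG CKO 2.

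Libraries were aligned in Seurat 5.3.0 on 2000 variable genes without the 6 members, the listed pathway genes or Erg, and clustered at resolution 0.8 (30 dimensions), and ECs again at 0.6 (20 dimensions). A cluster was named from at least 3 fixed markers, and an EC subtype also needed a mean log2 fold of 0.25, a limit set after the data were seen. UMIs were summed per library and class of at least 10 cells per library and tested with edgeR 4.0.16 in R 4.3.3 (TMM, filterByExpr, quasi-likelihood, two-sided), with Benjamini-Hochberg adjustment over all genes of the class. The study compared cells. Here the mouse is the replicate, and the summed counts of whole libraries differed between replicates of a group by more than sampling noise. Those sums include differences in which cells were captured, and the spread within a class was not measured this way. The SE is the log2 fold change over the square root of the F statistic. On simulated counts with ECs as the model, 100 genes were changed 2-fold and 100 were changed 4-fold among 10527 genes. Of these, 65% and 96% were recovered, and 12.5% of calls were false. With aCap ECs as the model the values were 65%, 98% and 7.39%. Genes with few counts were not among those changed, so this recovery does not cover sparse genes. Intervals and limits from a count of 0 use 3 counts and cover counting error only.

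The members and lists were chosen with earlier results of these data known. The 6 members are described with values in each library where they passed and in their 3 highest classes, and by range elsewhere. Of each pathway list the genes that passed in ECs are named, or else the one with the largest difference. The 3 genes most correlated with each member over class means of log2(CPM + 10), among genes with at least 50 CPM in some class, are named. Values for single aCap and gCap pathway genes and for Vcam1-positive cells were added after the values were seen. Alternatives were DESeq2 1.42.0, other size factors, no filter, a replicate block, each library left out, doublets left out, a mitochondrial limit of 10%, thinning to 1000 UMIs, resolutions of 0.4 and 1.2, no alignment, and leaving out cells with Pf4 or Ppbp or with Ptprc. A further 4 were chosen after the data were seen, namely no limit on the subtype fold, subtypes from the clusters of all cells, a minimum of 5 cells for interstitial macrophages, and the highest cell of each member left out. Promoters were from RefSeq (GRCm38.p6) and gene positions from GENCODE.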

Additional observations from a re-analysis of the deposited data

Results flagged for a closer look

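The ERG CKO difference of a member differed between cell classes in 4 of 41 tests of the difference itself. That of Icam2 in aCap ECs lay below that in gCap ECs by -0.92 on the log2 scale. That of Vcam1 lay below the gCap difference by -4.24 in venous ECs and by -4.84 in arterial ECs. That of Icam2 in the epithelium lay above that in ECs by 1.73 (SE 0.36, edgeR adjusted p = 0.0127), and it passed in 3 of the 4 fits that left out 1 library, with an adjusted p of 0.234 in the other, without WT 2. The epithelial libraries were of unequal depth, with a median of 2370 UMIs per cell in ERG CKO 1 and 18045 to 21235 in the others.

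A cluster of 171, 140, 428 and 216 cells was left unnamed for its low depth (median 976 UMIs) and entered no comparison. Its Vcam1 was 10.1 and 5.997 CPM in WT (2 and 1 UMIs), and 38.3 CPM in ERG CKO 1 and 31.1 CPM in ERG CKO 2 (22 and 8 UMIs), above both WT libraries, with no test.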

How the results depend on the processing

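Each group had 2 mice, and venous ECs, arterial ECs and interstitial macrophages had few cells. In these classes 4769, 2009 and 1446 genes could be tested, against 9302 in gCap ECs. The rise of Vcam1 passed in 17 of 17 alternatives in aCap ECs (3.84 to 5.87) and in 17 of 19 in gCap ECs (1.91 to 3.74). The fall of Icam2 in aCap ECs passed in 18 of 18 (-0.95 to -0.72) and that of Icam1 in 17 of 18 (-1.08 to -0.69). Without alignment, 4 and 1 ERG CKO cells were aCap ECs, too few to test, and Vcam1 in gCap ECs was 2.56 (edgeR adjusted p = 0.0349). Thinned, Vcam1 in aCap ECs could not be tested either, so the 17 alternatives for it hold neither setting. Leaving out doublets and lifting the subtype limit each gave the same 820 of 7086 genes in aCap ECs as the main fit. Lifting the limit gave the same 242 of 9302 in gCap ECs. These fits repeat the main fit and add no support. Causes of changes were not tested.

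The direction turned for Vcam1 in ECs without WT 2 and without ERG CKO 2 (range with 1 library left out -0.57 to 0.81), thinned (0.31), at resolution 1.2 (0.24) and without the highest cells (0.079). It turned for Selplg in ECs without ERG CKO 2 (range -0.0065 to 0.24), without cells with Pf4 or Ppbp (-0.38) or with Ptprc (-0.58), and in gCap ECs without ERG CKO 2 (range -0.96 to 0.062). It turned for Icam2 in arterial ECs at resolution 1.2 (0.048) and in venous ECs when thinned (0.17).

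With no filter on low counts, 2 members passed in ECs, 1 in arterial and 3 in venous ECs, 3 pairs in other classes (Icam2 in epithelium, Vcam1 in neutrophils and in non-classical monocytes) and 12 pathway genes in ECs. Thinned, 0 passed in gCap and 1 in aCap ECs. With subtypes from all-cell clusters 0 passed in gCap ECs, and with no limit on the subtype fold 1 in venous ECs. With 1 library left out, 0 to 2 members passed in ECs, 0 to 1 in arterial and 0 to 3 in venous ECs, 0 to 2 pairs in other classes, 1 to 13 pathway genes in ECs and 4 to 6 differences between classes. Over all genes, 358 passed in ECs, against 43 at resolution 1.2, 1159 with no filter and 126 to 948 with a library left out. In gCap ECs 242 passed, against 127 with DESeq2, 7 without alignment, 47 at resolution 1.2, 12 with all-cell clusters, 23 thinned, 140 without Pf4 or Ppbp cells, 576 with no filter and 146 to 550 with a library left out. In aCap ECs 820 passed, against 390 with DESeq2 and 251 thinned. In venous ECs 3 passed, against 82 with no filter, 63 with no limit on the subtype fold and 17 to 207 with a library left out. In arterial ECs 0 passed, against 37 with no filter, 4 at resolution 1.2 and 0 to 83 with a library left out.

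WT and ERG CKO libraries share replicate numbers that no label ties to a litter or day. Deviations from the group means of same-numbered libraries correlated at 0.306 over 10753 genes in ECs. With the replicate number as a block, 910 genes passed in ECs, 395 in gCap, 24 in arterial and 83 in venous ECs. Vcam1 in ECs turned to 0.067, 1 member passed in arterial ECs (Vcam1 at -1.50, edgeR adjusted p = 0.0180), 2 in venous ECs (Selp at -1.42 and Icam1 at -1.13) and 11 pathway genes in ECs.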
